A study of Mus musculus with 8 samples.

Results

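Replication-dependent histone genes were read in poly(A)-selected brain RNA from 8 mice at postnatal day 50. The D50A group held 5 mice that carried the Cstf2 D50A allele, an alanine in place of an aspartate in the RNA recognition motif of CSTF2, and the WT group held 3 wild-type littermates. Both groups were untreated and came from a colony backcrossed for 4 generations to C57BL/6NCrl and then bred within itself. The tissue was recorded as whole brain, but cerebellar transcripts differed between libraries, as given below. The allele is carried by the whole animal, Cstf2 is X-linked, and the labels do not say whether mutant mice were male or female. The labels give no litter or batch either, and the numbers D50A 1 to 5 and WT 1 to 3 only follow the order of deposit. The members were all rows of the gene count table whose symbol begins with Hist1h, Hist2h, Hist3h or Hist4h. There were 60 such rows of 25815 in the table, with 17238 reads in all. Of these, 14 passed the filter on low counts and were tested, and they held 96.0% of the reads. The other 46 had 1 to 85 reads each over the 8 libraries, with a median of 7.

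Replication-dependent histone genes encode the H1, H2A, H2B, H3 and H4 proteins that package newly made DNA, and dividing cells transcribe them in S phase. Their mRNAs usually carry no poly(A) tail: the transcript is cut shortly after a stem-loop that is bound by the stem-loop binding protein SLBP, with the U7 snRNP and the endonuclease CPSF3. When that cut is missed, or in cells that have stopped dividing, some of these genes can give longer mRNAs that are cut at a downstream AATAAA-type signal and polyadenylated. CSTF2 is a subunit of the cleavage stimulation factor for polyadenylation and has also been found in complexes that process histone pre-mRNA in cultured cells. Libraries made with oligo(dT) beads therefore register mainly the polyadenylated forms, and tailless forms are largely lost in that step. The comparison asked how the level of histone RNA in this fraction differed between D50A and WT brains.

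The 3' ends of the annotated histone transcripts hold the stem-loop and, in some genes, a poly(A) signal. The stem-loop was searched as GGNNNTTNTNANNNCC, 16 bases, on the sense strand in the first 200 bases after the last coding base of the longest annotated transcript (GENCODE M21, mm10). It was found in 37 of 58 member rows whose gene identifier is in that annotation, and in 11 of the 14 tested members. It was also found in 0.292% of 14738 other protein-coding genes that passed the filter and had at least 16 bases after the stop codon. The 58 rows were not held to these limits. Of them 54 are protein-coding, and some, such as Hist1h1b and Hist1h4k, are annotated with 0 bases after the stop codon, where no match was possible. Where found, the stem-loop began 21 to 54 bases after the stop codon. The most frequent form stood in 18 genes of the H1, H2A, H2B and H3 classes. All 12 stem-loops of H4 genes differed from that form in the letters of the stem or loop. Below, the stem-loop is in capitals within 26 bases, for an H1, an H2A and an H2B gene with the shared form and for 3 H4 genes whose levels are described further on.
Hist1h1c, chr13:23739507-23739532, plus strand: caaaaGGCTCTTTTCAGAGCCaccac
Hist3h2a, chr11:58955167-58955192, plus strand: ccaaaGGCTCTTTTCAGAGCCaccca
Hist3h2ba, chr11:58949344-58949369, plus strand: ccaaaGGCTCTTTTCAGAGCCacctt
Hist1h4h, chr13:23531453-23531478, plus strand: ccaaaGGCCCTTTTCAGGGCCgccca
Hist1h4i, chr13:22040961-22040986, minus strand: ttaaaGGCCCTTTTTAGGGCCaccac
Hist2h4, chr3:96262934-96262959, minus strand: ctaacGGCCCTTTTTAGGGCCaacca

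A poly(A) signal, AATAAA or ATTAAA on the sense strand in the last 50 bases of the transcript, was found in 15 of the 58 rows (25.9%) and in 78.8% of 14864 other protein-coding genes that passed the filter. The 58 rows include 44 that did not pass that filter. Among the 14 tested members, which did pass it, 8 had a signal (57.1%). Of the 15 rows with the signal 8 were tested (53.3%), and of the 43 without it 6 were tested (13.95%). The 15 rows held 69.1% of the reads of the matched rows. These shares are a description, since the annotated ends themselves rest in part on cDNA clones. The 15 rows also had longer annotated transcripts than the 43, with medians of 1254 and 485 bases. A larger share of their 50-base stretches was found in no other annotated gene, with medians of 71.1% and 40.6%. The parts of signal, length and shared sequence in the read counts were not tested. Some members, such as Hist1h1b and Hist1h4k, are annotated with 0 bases after the stop codon, so their 3' ends were not there to search. In the lines below the signal is in capitals within 30 bases near the end of the transcript, for members with many reads or with large differences between libraries.
Hist1h1c, chr13:23740338-23740367, plus strand: ttctAATAAAaagcgtttagttttcattca
Hist3h2ba, chr11:58949504-58949533, plus strand: attAATAAAtttggttcaattttggccaca
Hist2h2be, chr3:96223709-96223738, plus strand: ttattattAATAAAgttaccgattagtttc
Hist1h4i, chr13:22040636-22040665, minus strand: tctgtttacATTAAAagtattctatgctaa
Hist1h4h, chr13:23531486-23531515, plus strand: ttATTAAAagagcgaacatgtgttttacgt
Hist2h4, chr3:96261687-96261716, minus strand: aaAATAAAatcttaaaaacaacaaaaagaa

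**Figure D1:**
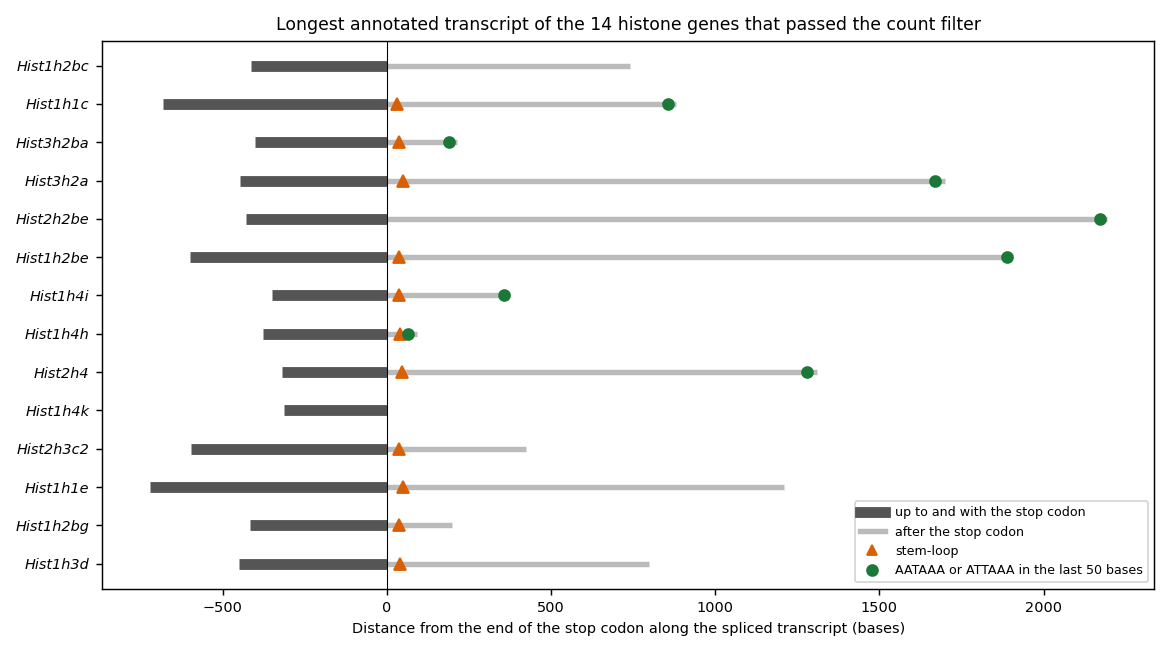
Longest annotated transcript of each of the 14 tested histone genes, drawn along the spliced RNA with the end of the stop codon at 0 (x axis in bases). Triangles mark the stem-loop, which 11 of the 14 hold 24 to 41 bases after the stop codon, and circles mark a poly(A) signal in the last 50 bases, which 8 of the 14 hold.

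In 10 of the 11 tested members with a stem-loop, the annotated transcript ran at least 100 bases past it; Hist1h4h was the exception with 46 bases. The longest such stretch among them was 1861 bases, in Hist1h2be. Hist1h2bc and Hist2h2be, both H2B genes, had no match to the stem-loop letters in the window, and Hist1h4k is annotated as its coding part alone, 312 bases. The members share sequence with each other: of the 50-base stretches of the annotated transcript, the share found in no other annotated transcript ran from 28.5% for Hist1h4k to 100% for Hist2h2be in the tested members, with a median of 70.3%. In the untested members the median was 41.3%. No source used here gives the read length or the treatment of reads with several matches, so reads could be split between or lost from near-identical copies, and counts of single genes are uncertain to that extent.

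Library D50A 3 stood apart from the other 7. It had 13675945 reads assigned to genes, against 17975329 to 24802272 in the other D50A libraries and 16455364 to 20551906 in WT. Mitochondrially encoded genes took 11.9% of its reads, against 4.08% to 5.14% in the other D50A libraries and 4.19% to 4.69% in WT. Cerebellar transcripts also differed between libraries: 5 granule cell markers summed to 485 to 692 CPM in D50A 2 to 5 and to 37.8 CPM in D50A 1, while WT had 33.6 to 35.1 CPM, and Gabra6 was at 0 in D50A 1 and WT 1. These levels ran largely along with genotype, with D50A 1 alone among the D50A libraries near WT. Cerebellar content and genotype can therefore not be fully told apart in the main comparison. CPM is read counts per 1e+06 reads after TMM scaling of the library sizes. Cstf2 itself was at 108 ± 25.3 CPM in D50A and 127 ± 6.66 CPM in WT (SD, n = 5 and n = 3), and a missense allele is not checked by its level. Because D50A 3 stood apart, log2 ratios of the members are given with and without it.

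Summed over all 60 rows, histone RNA was far higher in D50A 3 than in any other library, and the other 4 D50A libraries lay within the range of WT. The sum was 100 CPM in D50A 1, 98.4 CPM in D50A 2, 306 CPM in D50A 3, 101 CPM in D50A 4 and 97.0 CPM in D50A 5, against 103, 101 and 84.9 CPM in WT 1, WT 2 and WT 3. As a share of all reads before scaling, histone rows had 242 reads per 1e+06 reads in D50A 3 (95% exact Clopper-Pearson interval 233 to 250), 102 to 106 in the other D50A libraries and 86.8 to 104 in WT. Such an interval covers counting error only, since reads are not independent molecules. The groups averaged 140 ± 92.4 CPM in D50A and 96.2 ± 9.82 CPM in WT (SD, n = 5 and n = 3), a ratio of 1.46. Without D50A 3 the ratio was 1.04. In whole tissue, a different number of cells that hold these RNAs and a different amount of RNA per cell cannot be told apart.

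No member passed the test between D50A and WT: edgeR's quasi-likelihood test called 0 of the 14 higher and 0 lower at an adjusted p under 0.05. Over all 16810 genes tested it called 0% in each direction, so the count of members does not set them apart. DESeq2 and limma-voom with sample quality weights also called none of the 14, where they called 0.185% of genes (DESeq2, both directions) and 1.87% higher and 1.20% lower (limma-voom). A count of 0 by edgeR does not show that levels were equal. It also called 0 of the 5 granule cell markers, at a median log2 fold change of 6.20, where DESeq2 called 5 and limma-voom 3. At an unadjusted p under 0.05, edgeR had 1 member, Hist1h1e, and 2.50% of all genes. At that level DESeq2 had 3 of the 14 and limma-voom 4. Their shares over all genes were not counted, so these counts cannot be weighed. The log2 fold change (D50A over WT, written below as the log2 ratio) was above 0 for 12 of the 14 members and for 48.6% of all genes. Among the 12, Hist1h3d had passed the filter through D50A libraries alone. Hist1h1e and Hist2h3c2 would not have passed on WT libraries alone, since WT 3, at 6 reads for each, was below the level asked for. The log2 ratio had a median of 0.32 over the members and -0.01 over all genes. Without D50A 3, which left 13 members tested, it was above 0 for 8 and below 0 for 5, against 49.4% of all genes above 0, and the medians were 0.07 over the members and -0.0017 over all genes. No member and 0% of all genes passed in that comparison. Without D50A 1 and D50A 3, edgeR called 0 of 12 members, beside 3.36% of genes higher and 3.06% lower. In that comparison the granule cell difference given above runs wholly along with genotype, and the parts of each cannot be told apart.

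**Figure D2:**
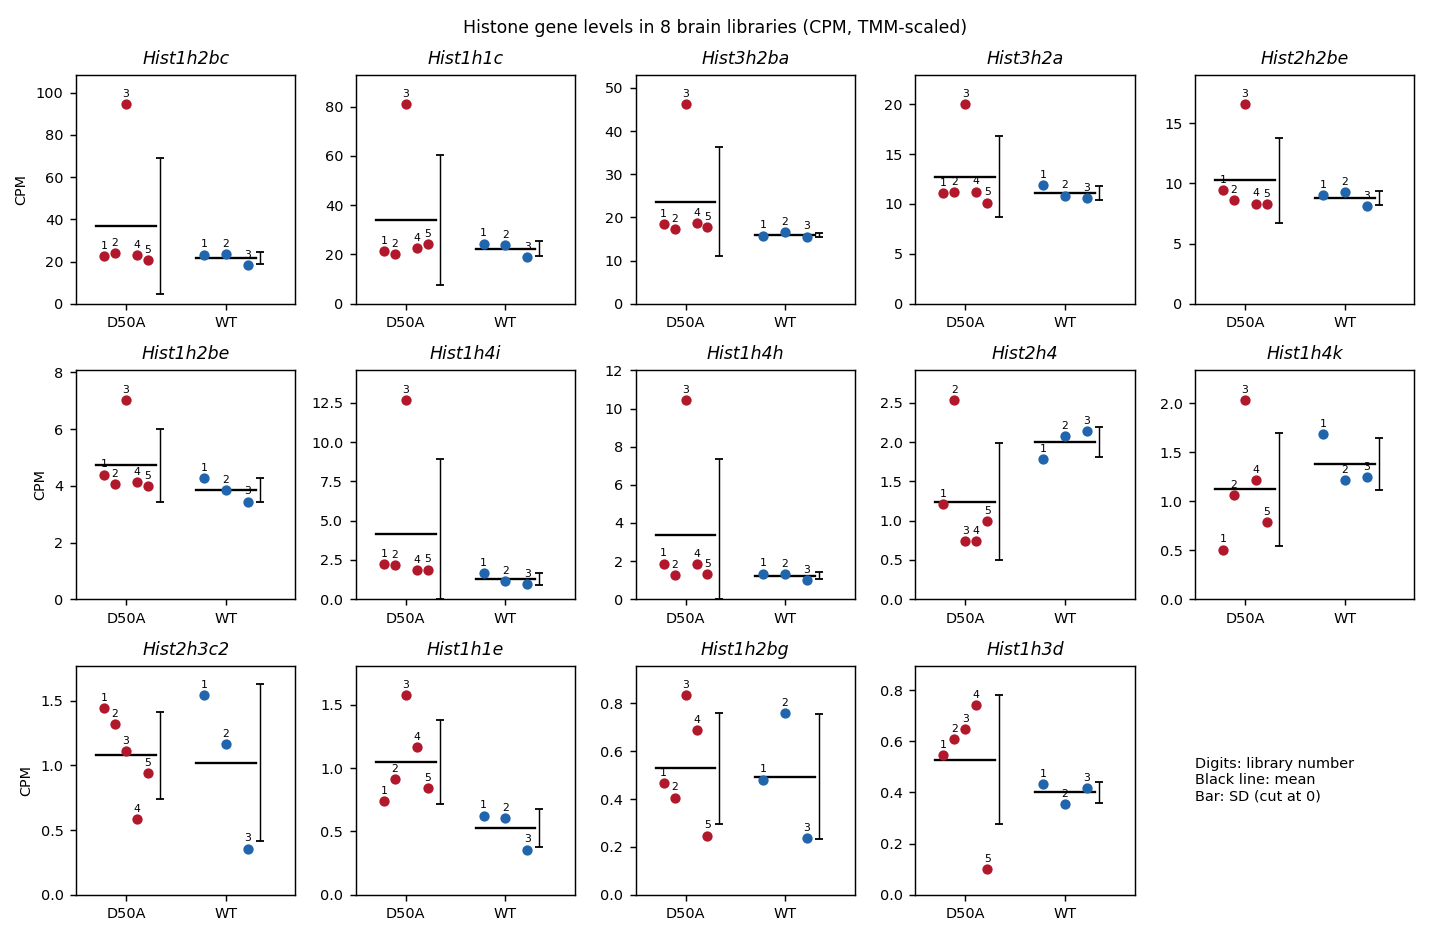
Levels of the 14 tested histone genes in CPM (linear axes from 0), with D50A libraries in red and WT libraries in blue, digits for the library, a black line for the mean and a bar for the SD. D50A 3 is the highest library in 11 of the 14 panels, and the other D50A libraries mostly sit at the height of WT.

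Linker histones, which bind the DNA that enters and leaves the nucleosome, had 2 tested members of 5. Hist1h1c (H1.2), ENSMUSG00000036181, 1 exon on chromosome 13 from 23738808 to 23740367 on the plus strand, had 21.3, 20.1, 80.9, 22.6 and 24.3 CPM in D50A 1 to 5, against 24.4, 23.6 and 19.1 CPM in WT 1 to 3. D50A 3 was high, and the other 4 D50A libraries lay inside the WT range. Its log2 ratio was 0.59 ± 0.50 (SE, edgeR adjusted p = 0.837), and -0.01 ± 0.10 (SE) without D50A 3. Hist1h1e (H1.4), ENSMUSG00000051627, on the minus strand of chromosome 13 from 23620629 to 23622558, had 0.740, 0.913, 1.57, 1.17 and 0.841 CPM in D50A, against 0.625, 0.607 and 0.356 CPM in WT. All D50A libraries were above all WT libraries, on 17 to 22 reads in each D50A library and 6 to 13 in each WT library. WT 3, at 6 reads, was below the level that the filter asks for. Hist1h1e would thus not have passed on WT libraries alone, and the direction of its difference carries less weight. Its log2 ratio was 0.92 ± 0.34 (SE, edgeR unadjusted p = 0.0242 and adjusted p = 0.837), and 0.76 ± 0.30 (SE) without D50A 3. Its annotated span overlaps that of Hist1h2be on the same strand, so reads in the shared part cannot be assigned to either gene with certainty.

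Among H2A genes, whose proteins pair with H2B in the nucleosome core, only Hist3h2a (ENSMUSG00000078851) passed the filter, of 14. It lies on chromosome 11 from 58954685 to 58956830 on the plus strand, as 1 exon. Its level was 11.1, 11.2, 19.98, 11.2 and 10.1 CPM in D50A 1 to 5, against 11.9, 10.8 and 10.6 CPM in WT 1 to 3. D50A 3 was above the rest, and the other D50A libraries overlapped WT. The log2 ratio was 0.19 ± 0.24 (SE, edgeR adjusted p = 0.837), and -0.01 without D50A 3. Trim17, on the same strand, and Gm44313, on the opposite strand, overlap its span.

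H2B genes gave most of the histone reads, 55.0% of the total, with 5 tested members of 18. Hist1h2bc (ENSMUSG00000018102), annotated with 2 exons on chromosome 13 from 23684199 to 23692908 on the plus strand, had the most reads of all members. It stood at 22.7, 23.9, 94.5, 23.2 and 20.5 CPM in D50A 1 to 5, against 23.3, 23.4 and 18.4 CPM in WT 1 to 3. D50A 3 was far above the rest, and the other D50A libraries overlapped WT. Its log2 ratio was 0.76 ± 0.55 (SE, edgeR adjusted p = 0.837), and 0.07 ± 0.10 (SE) without D50A 3.

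Hist3h2ba (ENSMUSG00000056895), on chromosome 11 from 58948920 to 58949533 on the plus strand, had 18.4, 17.3, 46.2, 18.6 and 17.7 CPM in D50A, against 15.8, 16.5 and 15.6 CPM in WT. All 5 D50A libraries were above all 3 WT libraries, with D50A 3 far above and the other 4 a little above. The log2 ratio was 0.56 ± 0.36 (SE, edgeR adjusted p = 0.837). It was 0.19 ± 0.07 (SE) without D50A 3 (edgeR adjusted p = 0.462). Hist2h2be (ENSMUSG00000068854), on chromosome 3 from 96221119 to 96223738 on the plus strand, had 9.46, 8.62, 16.6, 8.32 and 8.31 CPM in D50A, against 8.997, 9.26 and 8.14 CPM in WT. Its groups overlapped apart from D50A 3, at a log2 ratio of 0.21 ± 0.26 (SE), and -0.0096 without D50A 3. Hist1h2be (ENSMUSG00000047246), on chromosome 13 from 23583670 to 23621124 on the minus strand, had 4.40, 4.06, 7.03, 4.13 and 4.005 CPM in D50A, against 4.28, 3.85 and 3.45 CPM in WT, again with D50A 3 far above the rest. For Hist1h2be the log2 ratio was 0.28 ± 0.23 (SE), and 0.11 ± 0.13 (SE) without D50A 3. Hist1h2bg (ENSMUSG00000058385), on chromosome 13 from 23571396 to 23572013 on the plus strand, was near the limit of the filter, at 0.467, 0.406, 0.833, 0.689 and 0.247 CPM in D50A and 0.481, 0.759 and 0.238 CPM in WT, and its groups overlapped throughout. For Hist1h2bg the log2 ratio was 0.02 ± 0.48 (SE), and the gene did not pass the filter without D50A 3. The adjusted p of edgeR was 0.837 for Hist2h2be and Hist1h2be and 0.986 for Hist1h2bg.

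H3 genes gave few reads, 1.74% of the total, with 2 tested members of 10, and neither followed the pattern of D50A 3. Hist2h3c2 (ENSMUSG00000081058), on chromosome 3 from 96238108 to 96239127 on the minus strand, had 1.44, 1.32, 1.11, 0.583 and 0.939 CPM in D50A, against 1.54, 1.16 and 0.356 CPM in WT. The groups overlapped, and the lowest library was WT 3, with 6 reads. Its log2 ratio was 0.07 ± 0.45 (SE, edgeR adjusted p = 0.954), and 0.06 ± 0.42 (SE) without D50A 3. Hist1h3d (ENSMUSG00000099583), on chromosome 13 from 23575763 to 23577011, had 0.545, 0.608, 0.648, 0.742 and 0.0989 CPM in D50A, against 0.433, 0.354 and 0.416 CPM in WT. D50A 5 was the lowest library, on 2 reads, and the other 4 D50A libraries were above WT. No WT library, at 9, 7 and 7 reads, reached the level that the filter asks for. Hist1h3d was thus tested through D50A libraries alone, the group where it was higher, so the direction of its difference carries little weight. The log2 ratio of Hist1h3d was 0.37 ± 0.51 (SE, edgeR adjusted p = 0.837), and 0.32 ± 0.50 (SE) without D50A 3.

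H4 genes had 4 tested members of 13, and their log2 ratios lay on both sides of 0. Hist1h4i (ENSMUSG00000060639), on chromosome 13 from 22040636 to 22041362 on the minus strand, had 58, 43, 137, 35 and 38 reads in D50A 1 to 5, against 35, 23 and 16 in WT 1 to 3. These were 2.26, 2.18, 12.7, 1.85 and 1.88 CPM in D50A, against 1.68, 1.16 and 0.950 CPM in WT, so that every D50A library was above every WT library. Its log2 ratio of 1.65 ± 0.78 (SE) was the largest of the members (edgeR adjusted p = 0.837). Without D50A 3 it was 0.69 ± 0.22 (SE, edgeR adjusted p = 0.335), and limma-voom with quality weights gave 0.65 with an adjusted p of 0.108.

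Hist1h4h (ENSMUSG00000060981), on chromosome 13 from 23531050 to 23531519 on the plus strand, had 1.87, 1.27, 10.5, 1.85 and 1.33 CPM in D50A, against 1.35, 1.32 and 1.01 CPM in WT. D50A 3 was high again and the rest overlapped. The log2 ratio was 1.38 ± 0.79 (SE), and 0.38 ± 0.23 (SE) without D50A 3. Hist2h4 (ENSMUSG00000091405) had a negative log2 ratio. It lies on chromosome 3 from 96261682 to 96263311 on the minus strand and had 31, 50, 8, 14 and 20 reads in D50A 1 to 5, against 37, 41 and 36 in WT 1 to 3. These were 1.21, 2.54, 0.740, 0.742 and 0.989 CPM in D50A, against 1.78, 2.08 and 2.14 CPM in WT. D50A 2 was the highest library of all, and the other 4 D50A libraries were below WT. The log2 ratio was -0.66 ± 0.40 (SE, edgeR adjusted p = 0.837), -0.53 ± 0.35 (SE) without D50A 3 and -1.09 without D50A 2. Hist1h4k (ENSMUSG00000064288), on chromosome 13 from 21750194 to 21750505 on the minus strand, had 0.506, 1.06, 2.04, 1.22 and 0.791 CPM in D50A and 1.68, 1.22 and 1.25 CPM in WT. D50A 3 was the highest library, the other 4 overlapped WT, and the log2 ratio was -0.36 ± 0.40 (SE), or -0.65 ± 0.31 (SE) without D50A 3. The adjusted p was also 0.837 for Hist1h4h and Hist1h4k.

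**Figure D3:**
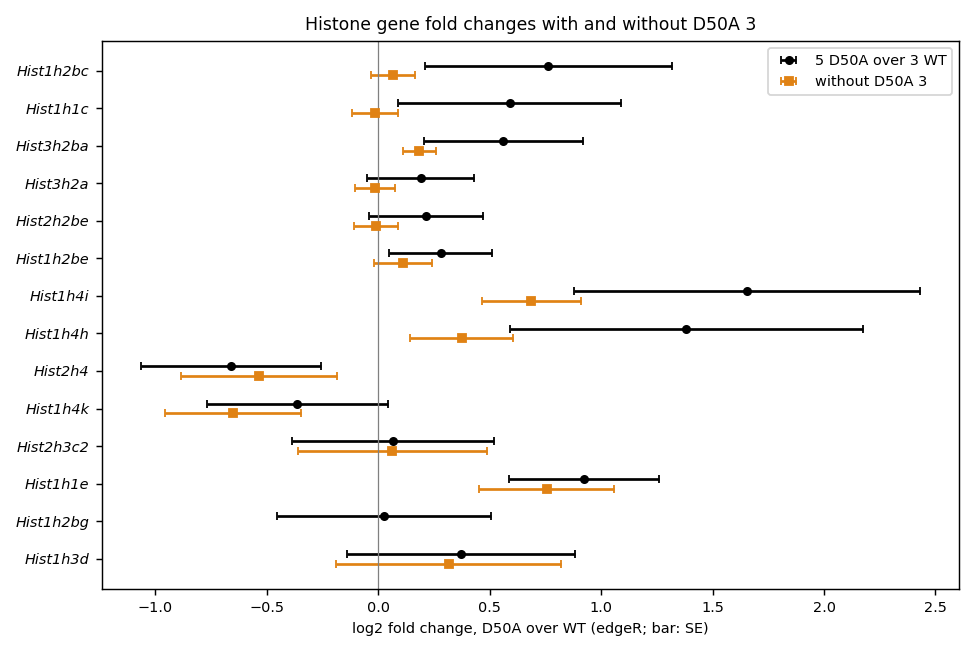
Log2 fold change of D50A over WT (edgeR, bar for the SE) for the 14 tested histone genes, with all 5 D50A libraries (black circles) and without D50A 3 (orange squares; Hist1h2bg did not pass the filter there). Leaving out D50A 3 brought Hist1h4i to 0.69 and Hist1h2bc to 0.07, while Hist2h4 stayed below 0 at -0.53.

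The D50A and WT libraries did not overlap, with D50A higher, for 3 of the 14 members, Hist3h2ba, Hist1h4i and Hist1h1e, and for 3.22% of all genes. The reverse order was seen in 0 of the 14 and in 4.24% of all genes. None of the 3 passed by edgeR, DESeq2 or limma-voom. Of these 3, Hist1h1e would not have passed the filter on its WT libraries alone. WT 3 was the lowest of the 8 libraries for 10 of the 14 members and for 8.31% of all genes. D50A 3 was the highest library for 11 of the 14 members and for 40.0% of all genes. It was the lowest for Hist2h4 and for 44.4% of all genes. Per kilobase of annotated exon, the order of members was led by Hist3h2ba with 38.5 ± 20.5 CPM per kilobase in D50A and 26.0 ± 0.803 in WT. Hist1h2bc followed with 32.0 ± 27.8 in D50A and 18.8 ± 2.49 in WT, and Hist1h1c with 21.7 ± 16.9 in D50A and 14.3 ± 1.86 in WT (SD, n = 5 and n = 3). In WT the spreads of Hist3h2ba and Hist1h2bc do not overlap, while in D50A the spreads of these 3 members do. Every other tested member was at or below 7.14 CPM per kilobase in either group.

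Relative to the mean log2 CPM of WT, the median of the 14 members was 0.15, 0.10, 0.88, 0.10 and -0.01 in D50A 1 to 5, and 0.12, 0.07 and -0.19 in WT 1 to 3. The median of all genes tested was -0.10 in D50A 3 and between -0.02 and 0.01 in the other libraries. Within D50A 3 the members ran from -1.31 for Hist2h4 to 3.26 for Hist1h4i. Short transcripts were high in that library in general: 889 other genes with under 1000 bases of annotated exon had a median of 1.0045. The 5 members under that length had a median of 1.53 and the 9 longer ones 0.85. Over 16686 other genes, the deviation of D50A 3 from WT fell with exon length, with a Spearman rho of -0.42, while over the 14 members rho was -0.13. Genes share their library and are not independent, so these values describe the library, and the part of length in the histone levels was not tested.

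**Figure D4:**
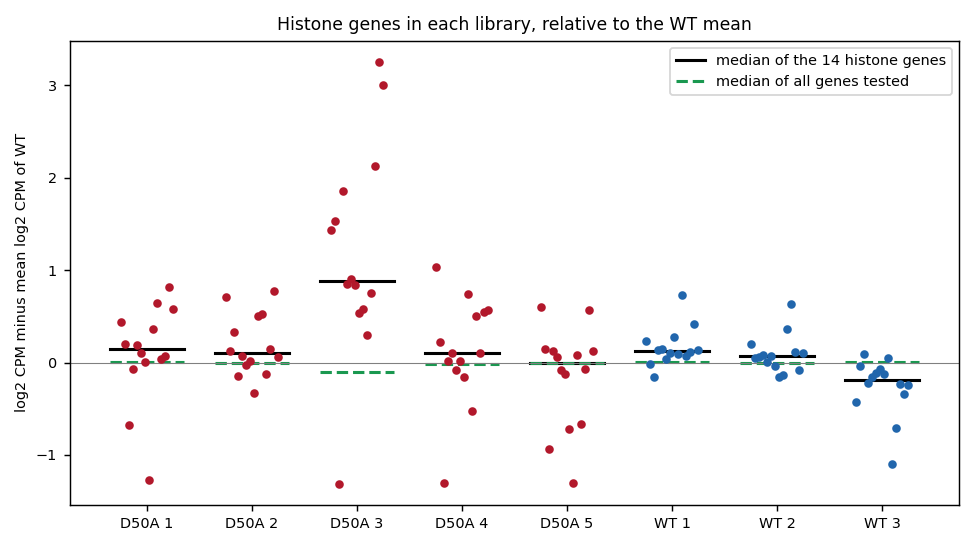
Log2 CPM of the 14 tested histone genes in each library, minus the mean log2 CPM of the 3 WT libraries. The black line is the median of the 14 and the green dashed line the median of all genes tested; in D50A 3 they stand at 0.88 and -0.10, and in the other libraries the histone median lies between -0.19 and 0.15.

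The 46 members that did not pass the filter summed to 442 reads in D50A and 239 in WT. Per library this was 3.74, 2.89, 10.5, 4.08 and 4.89 CPM in D50A 1 to 5, against 4.33, 4.96 and 3.03 CPM in WT 1 to 3, with D50A 3 again the highest. The most reads among them were in Hist1h2ac, an H2A gene, with 11, 7, 23, 8 and 10 in D50A 1 to 5 and 11, 10 and 5 in WT 1 to 3. The pseudogene Hist3h2bb-ps had 11, 1, 10, 4 and 10 reads in D50A and 11, 3 and 0 in WT. Hist1h2ae had 7, 3, 7, 6 and 12 in D50A and 6, 6 and 2 in WT, Hist1h4j had 6, 4, 3, 0 and 11 in D50A and 8, 11 and 4 in WT, and Hist1h2bn had 5, 6, 0, 5 and 5 in D50A and 8, 5 and 5 in WT. D50A and WT overlapped for all of these. Of the 46, 26 had fewer than 10 reads over the 8 libraries, and 11 had none in the 3 WT libraries and 2 none in the 5 D50A libraries. With fewer WT libraries, rows with few reads are more often at 0 in WT, so these counts do not compare the groups. A count of 0 in a library allows up to 3 reads, so differences in rows at 0 were not detectable at this depth. With no filter on low counts, all 60 members were tested and edgeR called 0; at an unadjusted p under 0.05 it had 3 of them, beside 2.55% of all 25815 genes.

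Among genes listed for histone pre-mRNA processing and histone mRNA decay, none passed the test between D50A and WT. The list also holds general polyadenylation and decay factors, such as Cpsf1, Fip1l1 and Upf1. Of the 35 genes listed, 33 were tested and edgeR called 0 higher and 0 lower, as did DESeq2 and limma-voom. DESeq2 gave no adjusted p for Snrpe and so could not call it. Their median log2 ratio was 0.02, and 0.05 without D50A 3. Slbp, which binds the stem-loop, was at 18.9 ± 1.62 CPM in D50A and 17.7 ± 0.819 CPM in WT (SD, n = 5 and n = 3). The U7 snRNP genes Lsm10 and Lsm11 were at 6.99 ± 3.75 and 38.2 ± 8.75 CPM in D50A, against 4.70 ± 0.651 and 41.0 ± 3.19 CPM in WT. Zfp473, whose human counterpart binds the U7 snRNP, was at 0.751 ± 0.133 CPM in D50A and 0.552 ± 0.258 CPM in WT. The cleavage module genes Cpsf2, Cpsf3 and Sympk were at 51.8 ± 2.95, 42.3 ± 5.32 and 130.2 ± 51.1 CPM in D50A, against 50.9 ± 3.72, 46.6 ± 1.90 and 151 ± 5.25 CPM in WT.

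Npat and Casp8ap2, which act at the histone locus body where these genes are transcribed, were at 32.5 ± 5.59 and 18.8 ± 3.76 CPM in D50A, against 33.1 ± 3.99 and 17.0 ± 2.08 CPM in WT. Eri1, an exonuclease that trims the histone 3' end, was at 17.0 ± 5.91 CPM in D50A and 13.6 ± 1.77 CPM in WT. Snrpb, Snrpe and Lsm10 were among the genes with the smallest unadjusted p in the list. Snrpb, a core protein shared by spliceosomal and U7 snRNPs, was at 58.6 ± 3.62 CPM in D50A and 51.6 ± 0.891 CPM in WT. Snrpe, another of these core proteins, was at 40.2 ± 45.9 CPM in D50A and 18.6 ± 0.846 CPM in WT, with D50A 3 the highest library. edgeR gave an adjusted p of 0.837 for each of these 3.

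Replication-independent histone genes, whose mRNAs mostly carry poly(A) tails and which supply chromatin outside S phase, gave 12 tested genes of 19 listed. Of these, edgeR, DESeq2 and limma-voom called none, but DESeq2 gave no adjusted p for H3f3a and so could not call it. D50A 3 was the highest library for 8 of the 12, beside 40.0% of all genes, and the lowest for 3, H2afx, H2afy and H2afy2, beside 44.4% of all genes. The median log2 ratio was 0.42, and 0.13 without D50A 3. H3f3a and H3f3b, which both encode H3.3, were at 82.2 ± 79.6 and 209 ± 80.8 CPM in D50A, against 37.9 ± 2.22 and 156 ± 4.48 CPM in WT. H2afz was at 162 ± 134 CPM in D50A and 93.3 ± 2.62 CPM in WT, H2afj at 114 ± 103 CPM in D50A and 61.3 ± 2.82 CPM in WT, and the linker variant H1f0 at 163 ± 53.9 CPM in D50A and 123 ± 6.48 CPM in WT. H2afx, whose transcript holds the stem-loop letters as the members do, was at 23.1, 19.8, 14.5, 18.5 and 18.9 CPM in D50A 1 to 5, against 21.9, 23.1 and 22.1 CPM in WT 1 to 3. D50A 3 was the lowest library for it, and D50A 1 the highest. Without D50A 1 and D50A 3, edgeR called 2 of the variants, H3f3a (adjusted p = 0.00607) and H1f0 (adjusted p = 0.0258), where it called 3.36% of all genes higher and 3.06% lower. The D50A libraries left, 2, 4 and 5, held 485 to 692 CPM of granule cell markers, against 33.6 to 35.1 CPM in WT. Genotype and cerebellar content cannot be told apart in that comparison.

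Of 26 genes of cycling cells, which make histone mRNA in S phase, none passed by edgeR or DESeq2. They summed to 164.7 to 168.98 CPM in D50A 1, 2, 4 and 5 and to 293 CPM in D50A 3, while WT held 168.5 to 174.7 CPM. Most of the difference in D50A 3 lay in Pcna, at 153 CPM there: without Pcna the other 25 genes summed to 140 CPM in D50A 3 and 121 to 131 CPM in the other D50A libraries, and to 129 to 134 CPM in WT. D50A 3 was the highest library for 9 of the 26 and the lowest for 10. Their median log2 ratio was -0.09, and -0.0031 without D50A 3. Mki67, a marker of dividing cells, was at 2.95 ± 1.18 CPM in D50A and 4.83 ± 0.809 CPM in WT, and every D50A library was below every WT library, an order shared by Cdc6 and E2f1, so 3 of 26, and by 4.24% of all genes. Top2a, a topoisomerase of dividing cells, was at 3.65 ± 0.509 CPM in D50A and 4.10 ± 0.519 CPM in WT, and the replication clamp Pcna at 64.8 ± 49.5 CPM in D50A and 39.5 ± 1.17 CPM in WT. limma-voom called 1 of the list, Cdc6, a replication licensing gene, lower (adjusted p = 0.0379), beside 1.20% of all genes called lower by that tool. It was at 0.584 ± 0.146 CPM in D50A and 1.03 ± 0.105 CPM in WT, with an edgeR adjusted p of 0.837. E2f1 and Ccne1, which act at the entry into S phase, were at 9.51 ± 1.34 and 10.5 ± 2.10 CPM in D50A, against 11.6 ± 0.858 and 13.1 ± 0.876 CPM in WT.

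Markers of other cells also moved between libraries. The 5 erythroid genes summed to 2363 CPM in D50A 3 and 306 to 548 CPM in the other D50A libraries, while WT held 354 to 524 CPM. The 4 mature oligodendrocyte genes summed to 18964 CPM in D50A 3 and 9143 to 10134 CPM in the other D50A libraries, while WT held 8293 to 9016 CPM. The 4 oligodendrocyte precursor genes summed to 76.0 CPM in D50A 3 and 131 to 167.7 CPM in the other D50A libraries, while WT held 166.2 to 176 CPM. The 5 immature neuron genes, of which Neurod1 is also a granule cell marker, summed to 120 to 163 CPM in D50A, and WT held 116 to 135 CPM. The 4 pituitary genes summed to 3.07 to 14.3 CPM in D50A, while the WT libraries 1 to 3 held 19.3, 844 and 3.27 CPM. Neuron and astrocyte markers, which define the tissue, were present in all libraries, at 3576 to 4283 and 923 to 1469 CPM in D50A, while WT held 4273 to 4485 and 954 to 983 CPM. The part of cell makeup in the histone levels was not tested.

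**Figure D5:**
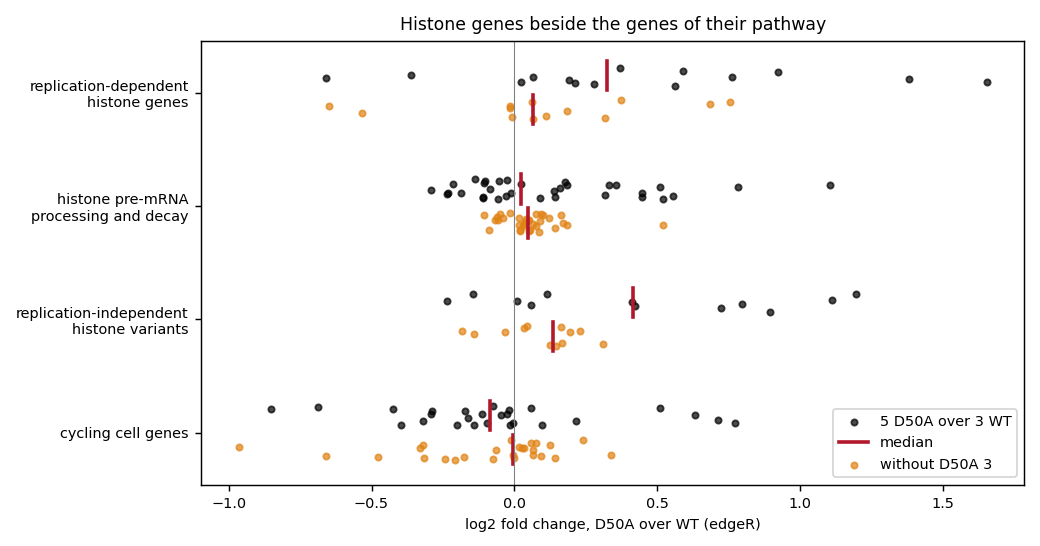
Log2 fold changes of D50A over WT (edgeR) for the 14 tested histone genes, 33 processing and decay genes, 12 replication-independent variants and 26 cycling cell genes, with all libraries (black) and without D50A 3 (orange). Red bars mark medians; the median of the variants stands at 0.42 with D50A 3 and 0.13 without it, and that of the histone genes at 0.32 and 0.07.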

How the data were processed

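Gene-level raw counts, not normalized, were deposited by the authors as 1 table with 1 column per animal. The submitters' processing notes list STAR 2.5, HTSeq 0.6.1, CASAVA 1.8, DESeq2 2 and the build mm10 without order; no source used here gives the annotation release, strand setting or read length. Libraries held 13675945 to 24802272 counts. Groups came from the genotype labels; each mouse gave 1 library, so p-values rest on the spread between these libraries. All genes were fitted with edgeR 4.0.16 (R 4.3.3): filterByExpr, TMM scaling, quasi-likelihood test, Benjamini-Hochberg adjustment over 16810 genes, threshold 0.05. The SE is the size of the log2 fold change over the square root of F. A prior count of 2 entered log2 CPM. The test was tried on simulated data. Alternatives were DESeq2 1.42.0, limma-voom (limma 3.58.1), other scaling and filters, and libraries left out. The rule named all tested members, the 5 untested members with the most reads, fixed pathway genes and the 4 genes with the smallest p of each pathway list; marker lists are given as sums. Of the genes so named, 1 is not reported here. Hist1h2bm and Hist1h2bh were not in GENCODE M21 under the identifier used, Hist2h2bb carries another symbol there, and 10 further histone symbols of M21 were not analysed here. Members and lists were chosen with earlier results of these data known.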

Additional observations from a re-analysis of the deposited data

Results flagged for a closer look

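Within the 5 D50A libraries, 40 quantities were screened for a library far from the other 4 (Dixon's ratio), and 23 had one; chance gives about 1 in 20. In 22 of the 23 it was D50A 3, and those values are not independent of each other.

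D50A 3 stood above the others for the summed histone CPM (306 CPM), the untested histone rows (10.5 CPM) and the sums of H1 (82.8 CPM), H2A (23.8 CPM), H2B (168.003 CPM) and H4 genes (28.6 CPM). Among single members it was the high library for Hist1h2bc (94.5 CPM), Hist1h1c (80.9 CPM), Hist3h2ba (46.2 CPM), Hist3h2a (19.98 CPM), Hist2h2be (16.6 CPM), Hist1h4i (12.7 CPM), Hist1h4h (10.5 CPM) and Hist1h2be (7.03 CPM). It was also high for the processing genes Lsm10 (13.7 CPM) and Eri1 (27.2 CPM), for the variants H2afz (402 CPM), H3f3b (353 CPM), H1f0 (258 CPM) and H3f3a (224 CPM), and for Pcna (153 CPM) and Top2a (4.53 CPM). Hist2h4 was the exception: D50A 2 stood above the others with 2.54 CPM, against 0.740 to 1.21 CPM in the other 4 D50A libraries.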

How the results depend on the processing

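edgeR called 0 of the tested members under every scaling, filter and left-out library tried; in the main comparison it also called 0 at an adjusted p under 0.1. The count over all genes was 0 in the main comparison, 37 by DESeq2, 517 by limma-voom, 1065 without D50A 1 and D50A 3 together, and 0 to 26 with single libraries left out, the 26 without D50A 1. The variants had 2 calls without D50A 1 and D50A 3, where genotype and cerebellar content cannot be told apart, and the cycling cell genes 1 by limma-voom. With single libraries left out, the median log2 fold change of the members ran from 0.07 (without D50A 3) to 0.67, and the ratio of summed CPM from 1.04 (without D50A 3) to 1.60. Without WT 3 they were 0.20 and 1.37. The filter was run anew each time, so the medians rest on different sets of members, 13 without D50A 3 and 17 without WT 3. Without scaling factors the ratio was 1.34.

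The log2 fold changes of 6 members turned negative under an alternative. By limma-voom Hist1h1c had -0.018, Hist2h2be -0.065, Hist3h2a -0.029, Hist1h3d -0.041, Hist2h3c2 -0.075 and Hist1h2bg -0.18. Without scaling factors Hist1h2bg had -0.019. Without D50A 1 and D50A 3, Hist2h2be had -0.052, Hist3h2a -0.019 and Hist2h3c2 -0.13. With single libraries left out, Hist1h1c ran from -0.014 to 0.75, Hist2h2be from -0.0096 to 0.28, Hist3h2a from -0.014 to 0.26, Hist2h3c2 from -0.32 to 0.48 and Hist1h2bg from -0.28 to 0.47. The cause was not tested. No paired analysis was possible because the labels give no litter or other pairing of mice. Depth limits the members with few reads.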
